A study of Mus musculus with 4 samples.

Results

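The genes described here are 34 genes of the hypoxia response that lie outside metabolism: secreted factors, membrane carbonic anhydrases, histone demethylases, transcription factors, coactivators and stress genes. They were given as a list of symbols, and each was represented by the probe set that names that symbol alone and has the highest mean over the arrays. All 34 were measured, among 19938 genes in all. They were measured in leukemia stem cells of a mouse model of chronic myeloid leukemia, with 2 arrays for WT donors and 2 for Hif1a-/- donors. Donors were C57BL/6 (B6) mice, or Hif1a-/- mice whose strain label is the same. In both groups the donors had been treated with 5-fluorouracil, which spares quiescent stem cells, and their marrow was transduced with a BCR-ABL/GFP retrovirus and transplanted into B6 recipients. BCR-ABL is the fusion kinase of the disease, so both groups carried it. The age in the labels is 8 weeks, and GFP+Lin-c-Kit+Sca-1+ cells were sorted from marrow 14 days after transplantation. The labels do not say how or in which cells Hif1a was deleted, or whether marrow of several animals was pooled. They call the 2 arrays of a group biological replicates without naming separate animals, so p-values measure the spread between these samples, which may be technical.

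HIF-1 is a transcription factor of an oxygen-regulated subunit, encoded by Hif1a, and a constant partner, ARNT. When oxygen is short the regulated subunit escapes hydroxylation and degradation, pairs with ARNT and binds short DNA motifs with the core ACGTG or GCGTG near its target genes, where it recruits the coactivators CBP and p300. Bone marrow holds regions of low oxygen, and HIF-1 is known for its part in keeping blood stem cells there. HIF-2, a related factor, shares many of these targets outside glycolysis.

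The promoters printed here belong to genes whose arrays were apart between genotypes, to show where these motifs stand in them. The RefSeq promoter table (build GRCm38.p6) held 41 promoters of 28 of the 34 genes. Bhlhe40, Ndrg1, Kdm4b, Angptl4, Zfp395 and Ppp1r3b had no entry. The windows are the 250 bases before a transcript start, in the direction of the gene, and the motifs ACGTG and GCGTG were searched on both strands. At least 1 motif stood in 27 of the 41 windows (65.9%), against 12679 of all 32851 windows (38.6%). By motif, ACGTG stood in 41.5% of these windows and 16.6% of all, and GCGTG in 53.7% and 28.2%. The palindrome CACGTG, which counts as ACGTG on both strands and is also a site for basic helix-loop-helix factors such as BHLHE40 and MXI1, stood in 14.6% and 6.02%. By gene, 23 of 28 had a motif in at least 1 window, against 41.5% of the 27025 genes of the table. These are matches of letters and no measurement of binding. The 34 genes were picked as hypoxia response genes, and the background was not matched in base composition or in windows per gene. The shares are therefore a description and no test.

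Below are the windows of the 6 genes in the promoter table whose groups did not overlap, that is, both Hif1a-/- arrays below both WT arrays, and of Fam162a, which had as many matches as any other window but hardly differed between genotypes. Capitals mark the matches on either strand, and the last base lies next to the transcript start. Fam162a and the choice of 1 of 2 windows for Hilpda and Kdm4c, the one with matches, were made after the values had been seen.
Ero1a (chr14:45318573-45318822, minus strand): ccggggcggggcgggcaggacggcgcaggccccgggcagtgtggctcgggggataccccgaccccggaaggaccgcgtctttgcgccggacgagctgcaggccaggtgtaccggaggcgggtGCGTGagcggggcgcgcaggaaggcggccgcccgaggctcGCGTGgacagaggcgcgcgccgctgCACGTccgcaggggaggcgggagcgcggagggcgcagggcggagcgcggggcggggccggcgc
Hilpda (chr6:29272376-29272625, plus strand): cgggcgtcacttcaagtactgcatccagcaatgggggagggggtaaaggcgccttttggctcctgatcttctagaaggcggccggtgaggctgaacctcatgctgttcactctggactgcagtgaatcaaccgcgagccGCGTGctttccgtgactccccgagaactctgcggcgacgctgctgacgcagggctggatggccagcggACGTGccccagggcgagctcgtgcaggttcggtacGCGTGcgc
Narf (chr11:121236986-121237235, plus strand): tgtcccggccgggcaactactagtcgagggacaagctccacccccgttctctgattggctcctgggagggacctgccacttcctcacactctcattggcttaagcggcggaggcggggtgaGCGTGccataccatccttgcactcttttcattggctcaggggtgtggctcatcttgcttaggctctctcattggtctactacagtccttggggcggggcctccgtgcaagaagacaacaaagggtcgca
Ankrd37 (chr8:45999851-46000100, minus strand): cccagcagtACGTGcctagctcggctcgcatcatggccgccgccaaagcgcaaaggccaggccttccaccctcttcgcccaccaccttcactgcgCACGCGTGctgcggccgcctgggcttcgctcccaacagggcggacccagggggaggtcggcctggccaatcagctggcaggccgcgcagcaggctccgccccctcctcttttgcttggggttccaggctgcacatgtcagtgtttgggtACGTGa
Stc2 (chr11:31370062-31370311, minus strand): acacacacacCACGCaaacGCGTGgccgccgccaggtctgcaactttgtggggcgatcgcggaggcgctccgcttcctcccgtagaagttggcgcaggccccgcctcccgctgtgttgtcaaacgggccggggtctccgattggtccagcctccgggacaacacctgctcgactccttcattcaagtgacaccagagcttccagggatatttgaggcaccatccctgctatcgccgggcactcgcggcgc
Kdm4c (chr4:74251629-74251878, plus strand): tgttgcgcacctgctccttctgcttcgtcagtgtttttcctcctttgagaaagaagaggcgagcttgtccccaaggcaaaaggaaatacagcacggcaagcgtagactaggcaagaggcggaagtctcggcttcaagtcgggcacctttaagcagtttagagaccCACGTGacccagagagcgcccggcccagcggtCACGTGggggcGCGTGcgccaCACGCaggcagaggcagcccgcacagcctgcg
Fam162a (chr16:36071562-36071811, minus strand): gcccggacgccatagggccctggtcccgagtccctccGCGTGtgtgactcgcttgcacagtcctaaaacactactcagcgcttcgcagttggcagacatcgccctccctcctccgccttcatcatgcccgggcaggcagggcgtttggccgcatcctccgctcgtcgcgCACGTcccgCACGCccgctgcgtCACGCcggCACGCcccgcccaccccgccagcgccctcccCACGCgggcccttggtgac

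All 6 genes with groups that did not overlap had a match, as did 17 of the other 22 (77.3%), so a match was common on both sides. Ero1a had 3 matches and Fam162a 6, with differences of -0.39 and -0.02 on the log2 scale. Narf had 1 match and the difference farthest from 0 among the 34, -0.52. Mif, Crebbp, Ep300, Rsbn1 and Car12 had no match in any window of the table.

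The arrays gave RMA log2 expression values, in which 1 unit is a doubling. Their medians over all genes lay between 8.53 and 8.57. The WT arrays stood farther apart than the Hif1a-/- arrays: 361 genes differed by more than 1 unit between WT replicates 1 and 2, and 33 between the Hif1a-/- replicates. Hif1a read 11.34 and 11.50 in WT and 11.25 and 11.39 in Hif1a-/- cells, so this whole-transcript probe set showed no loss; where in the gene the deletion lies is not in the labels, and a probe set outside it would check nothing. Of the sort markers, Kit read between 10.32 and 11.07 and Cd34 between 10.31 and 12.29, while Ly6a, the gene of Sca-1, was not analysed here. Mean levels of marker lists, chosen with earlier results of these data known, showed which arrays stood apart. Mean values for 8 mature neutrophil genes were 13.02 and 11.21 on WT replicates 1 and 2 and 12.04 and 11.99 on the Hif1a-/- replicates. For 4 stem and progenitor genes (Kit, Cd34, Ptprc and Meis1) they were 10.30 and 11.13 in WT and 10.44 and 10.72 in Hif1a-/- cells. For 5 erythroid genes they were 10.16 and 10.16 in WT and 10.94 and 10.53 in Hif1a-/- cells. Of these, 5 of 5 lay above WT on both arrays, beside 15.7% of all genes. For 7 mast cell and basophil genes they were 11.45 and 11.42 in WT against 10.70 and 11.12 in Hif1a-/- cells. Of these, 3 of 7 lay below on both, beside 9.05% of all genes. Means of 6 monocyte and macrophage genes were 9.46 and 9.51 against 8.80 and 9.49, of 5 B cell genes 9.12 and 8.27 against 8.63 and 8.42, of 5 T and NK cell genes 7.21 and 6.92 against 7.11 and 7.05, of 5 endothelial genes 8.38 and 8.86 against 8.32 and 8.47, and of 5 stromal genes 8.33 and 8.42 against 8.36 and 8.52. Log2 array values have no zero that marks an absent transcript, and 4 of the 5 T and NK cell genes lay under the 25th percentile of all genes. In sorted cells measured in bulk, fewer cells of a type and less RNA per cell cannot be told apart.

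Most hypoxia response genes outside metabolism read slightly lower in Hif1a-/- cells, and a minority did so on both arrays. The lower values belonged to Narf, Bhlhe40, Ero1a, Hilpda, Ndrg1, Ppp1r3b, Ankrd37, Stc2, Kdm4c and Kdm4b, with differences from -0.52 to -0.08. The angiogenic factors Vegfa and Pgf, the coactivators Crebbp and Ep300 and the repressor Mxi1 differed by at most 0.11 in either direction. The highest positive differences were 0.19 for Angptl4 and 0.14 for Adm, both with overlapping groups.

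In counts, 25 of the 34 genes averaged lower without Hif1a, where 38.6% of all genes did, and the other 9 averaged higher. The share over all genes depended on the processing. It was 47.2% after a second quantile normalization and 47.1% with centred array medians, where 27 of the 34 averaged lower in each. With a floor at the 25th percentile it was 54.6%, beside 26 of the 34. With the median filter it was 46%, beside 20 of the 25 genes kept. For 10 (29.4%) the groups were apart with Hif1a-/- below WT on every array, beside 9.05% of all genes. For 0 they were apart with Hif1a-/- above WT, beside 15.7% of all genes. The split over all genes depended on the scaling: a second quantile normalization gave 13% below and 14.0% above, and centred array medians 12.3% and 11.5%. Among the 34 genes, the second quantile normalization put 12 below, 9 of the 10 among them, and Jmjd6 and Zfp395 above. Centred array medians put 14 below, with all 10 among them, and 0 above. Over the 34 genes the median difference was -0.10, beside 0.03 over all genes. By limma with Benjamini-Hochberg adjustment over all genes, 0 of the 34 passed an adjusted p of 0.05, as did 0% of all genes, and the smallest adjusted p among them was 0.999. At an unadjusted limma p under 0.05 there were 4 lower genes (Narf, Bhlhe40, Ero1a and Hilpda), beside 0.978% of all genes lower, and 0 higher genes, beside 0.697% of all genes higher. On the same arrays the mast cell and basophil list was lower and the erythroid list higher in Hif1a-/- cells, as given above, and their part in these counts was not tested.

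Single arrays moved these values. Without WT replicate 1, 28 of the 34 genes averaged lower, beside 44.2% of all genes. Ak4, Car9 and Car12 then differed by -0.95, -0.79 and -0.75. Without WT replicate 2, 21 averaged lower, beside 43.8% of all genes, and Ak4, Car9 and Car12 turned to 0.35, 0.20 and 0.33. Without Hif1a-/- replicate 1, 27 averaged lower (beside 40.2%), and without Hif1a-/- replicate 2, 22 (beside 41%). A group with 1 array left has no measured spread, so p-values of these fits are not given. The direction held without any single array for 15 of the 34 genes and turned for the other 19. Those 15 include the 10 with groups apart, where it could not turn, and Bhlhe41 and Wsb1, whose difference came to 0.00 without Hif1a-/- replicate 2.

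**Figure D1:**
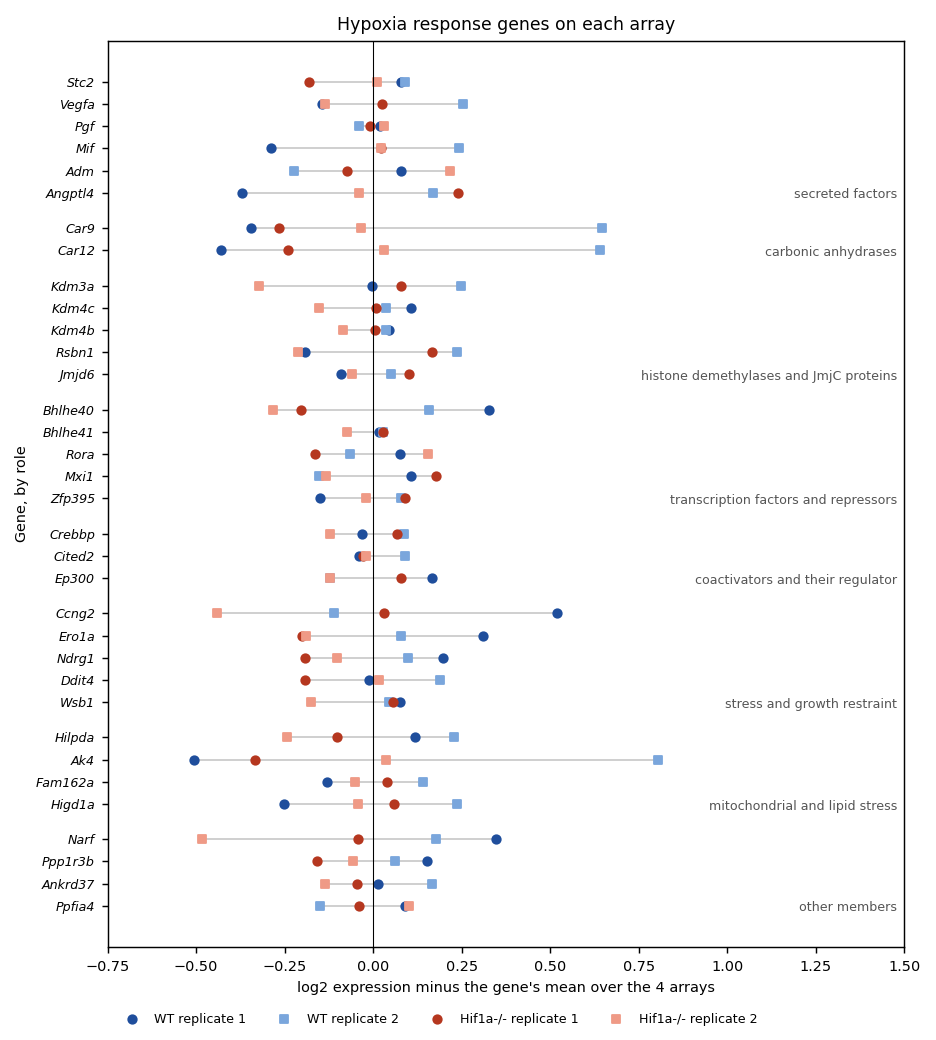
Log2 expression of each of the 34 genes on each array, minus the gene's mean over the 4 arrays, with genes grouped by role on the vertical axis; circles are replicate 1, squares replicate 2, blue shades WT and red shades Hif1a-/-. WT replicate 2 was the highest array for 16 of the genes and Hif1a-/- replicate 2 the lowest for 13, and Ak4, Car9 and Car12 had the widest gaps between the WT arrays.

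Among the 6 secreted factors, Stc2 and Vegfa averaged lower without Hif1a and the other 4 higher. Stc2, a glycosylated hormone that cells make under stress, was the one factor with groups apart. It read 8.65 and 8.66 in WT and 8.39 and 8.58 in Hif1a-/- cells, where the WT arrays were nearly equal and Hif1a-/- replicate 1 was the lowest. The difference was -0.17 ± 0.13 (SE), with an unadjusted limma p of 0.228, and -0.08 without Hif1a-/- replicate 1.

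Vegfa, the main growth factor of blood vessels and a classical HIF target, read 9.56 and 9.96 in WT and 9.73 and 9.57 in Hif1a-/- cells. WT replicate 2 stood above the other 3 arrays, which lay within 0.17 of each other. The difference of -0.11 had a 95% interval from -0.52 to 0.30, and was 0.09 without WT replicate 2. Its relative Pgf, placental growth factor, read between 7.35 and 7.42 on the 4 arrays (difference 0.01, interval from -0.28 to 0.31), with a sign that turned under a second quantile normalization (-0.04) and with centred array medians (-0.01). Pgf lay under the 25th percentile of all genes, where RMA values understate differences.

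Adm, the vasodilator peptide adrenomedullin, read 7.86 and 7.56 in WT and 7.71 and 8.00 in Hif1a-/- cells, and its groups overlapped. Angptl4, an inhibitor of lipoprotein lipase, read 8.82 and 9.36 in WT and 9.43 and 9.15 in Hif1a-/- cells, with WT replicate 1 alone low. The interval for Angptl4 ran from -0.30 to 0.69, and the difference was -0.07 without WT replicate 1. Mif, a cytokine that acts through CD74 and chemokine receptors, read 12.76 and 13.29 in WT and 13.07 and 13.07 in Hif1a-/- cells. Its other probe sets differed by 0.02 and -0.01, and processed copies of Mif in the mouse genome may share its signal. Mif differed by -0.22 without WT replicate 1 and by 0.31 without WT replicate 2, so both Hif1a-/- arrays lay between the WT arrays.

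Receptors and relatives of these factors came from a separate list, of which 21 of 23 genes were measured. Groups were apart with Hif1a-/- lower in 4 (19.0%, beside 9.05% of all genes) and higher in 2 (9.52%, beside 15.7%). The list's median difference was 0.00. Cd74, the receptor of MIF and invariant chain of antigen presentation, had the smallest unadjusted p of the list. It read 12.41 and 12.44 in WT and 11.76 and 11.92 in Hif1a-/- cells, a difference of -0.58 ± 0.13 (SE) with an unadjusted limma p of 0.00311 and groups 0.49 apart. The monocyte list, whose cells also make CD74, averaged 8.80 on Hif1a-/- replicate 1 and 9.46 to 9.51 on the other 3 arrays, and its part in this value was not tested. Ramp2, a subunit of the adrenomedullin receptor, read 0.23 higher in Hif1a-/- cells. Of 15 measured vascular and secreted hypoxia genes outside the 34, 1 (6.67%, beside 9.05% of all genes) lay below on both arrays. Above on both lay 2 (13.3%, beside 15.7%). The differences were 0.26 for Edn1, the vasoconstrictor endothelin, and -0.38 for Hmox1, the heme-degrading oxygenase.

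Car9 and Car12, carbonic anhydrases of the cell surface that buffer acid outside hypoxic cells, shared one pattern. Car9 read 7.96 and 8.95 in WT and 8.04 and 8.27 in Hif1a-/- cells. Car12 read 8.45 and 9.52 in WT and 8.64 and 8.91 in Hif1a-/- cells. In both genes WT replicate 2 was far the highest array, WT replicate 1 the lowest, and the Hif1a-/- arrays lay between them. The differences were -0.30 for Car9 and -0.21 for Car12, with intervals from -1.04 to 0.44 and from -1.01 to 0.59. Both turned without WT replicate 2, to 0.20 and 0.33, and without WT replicate 1 were -0.79 and -0.75.

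The 4 arrays stood in the same order for Car9 and Car12 as for the mean of the stem and progenitor genes. Of the 4 genes in that mean, Cd34 and Meis1 followed this order. Kit did not, at 10.95 and 10.61 on the Hif1a-/- arrays, and neither did Ptprc, a gene of all leukocytes, at 11.60 and 11.14 in WT and 10.97 and 10.98 in Hif1a-/- cells. WT replicate 2 was also the lowest array for mature neutrophil genes. The part of cell composition in these values was not tested. Of 12 other carbonic anhydrases, 1 (8.33%, beside 9.05% of all genes) lay below on both Hif1a-/- arrays and 3 (25%, beside 15.7%) above. Car1 and Car2, the cytosolic enzymes of red cells, read 0.57 ± 0.22 (SE) and 0.38 ± 0.14 (SE) higher in Hif1a-/- cells, with unadjusted limma p of 0.0355 and 0.0298. The erythroid list was higher on the same arrays, as given above, and its part in these 2 values was not tested.

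Histone demethylases of the JmjC family need oxygen, iron and 2-oxoglutarate and are themselves induced in hypoxia. Of the 5 genes in this group, 4 averaged lower without Hif1a. Kdm4c, which removes methyl groups from lysine 9 of histone H3, read 9.19 and 9.12 in WT and 9.09 and 8.93 in Hif1a-/- cells. Kdm4b, its close relative, read 9.55 and 9.54 in WT and 9.51 and 9.42 in Hif1a-/- cells. The groups did not overlap in either gene, but the gaps between them were only 0.03 and the differences -0.14 ± 0.13 (SE) and -0.08 ± 0.12 (SE).

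Kdm3a, another demethylase of lysine 9 and one of the best known HIF targets of the family, read 9.48 and 9.73 in WT and 9.56 and 9.16 in Hif1a-/- cells. Hif1a-/- replicate 2 alone was low, and the difference of -0.24 became -0.04 without it. Jmjd6, a hydroxylase of lysine in splicing factors, differed by 0.04 and Rsbn1, which carries a JmjC-like fold, by -0.04. A list of other JmjC proteins, TET dioxygenases and related dioxygenases such as Ogfod1 held 22 genes. Of these, 4 (18.2%, beside 9.05% of all genes) lay below on both Hif1a-/- arrays. Above on both lay 1 (4.55%, beside 15.7%). The median difference of these 22 was -0.01. The smallest unadjusted p among these belonged to Kdm5b (-0.22) and Kdm2a (-0.15).

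Among the 5 transcription factors, the groups were apart for Bhlhe40 alone, a helix-loop-helix repressor of clock and metabolic genes. It read 11.42 and 11.25 in WT and 10.89 and 10.81 in Hif1a-/- cells. Both Hif1a-/- arrays lay at least 0.35 below both WT arrays, and the fold was 1.40 lower in Hif1a-/- cells. The difference was -0.48 ± 0.13 (SE), with an unadjusted limma p of 0.00903, the smallest among the 34 genes, and an adjusted p of 0.999. It ranged from -0.57 to -0.39 when single arrays were left out. Its paralog Bhlhe41 read between 6.47 and 6.57 on all arrays, under the 25th percentile of all genes, so a difference there may be compressed.

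The other transcription factors overlapped between groups. Mxi1, an antagonist of MYC, read 9.89 and 9.63 in WT and 9.96 and 9.65 in Hif1a-/- cells. Replicate 1 was the higher array in both genotypes, and the difference was 0.04. Rora, a nuclear receptor of the clock, differed by -0.01. Zfp395, a zinc finger factor, differed by 0.07, and its second probe set by -0.23 because Hif1a-/- replicate 2 read 8.14 there against 8.60 to 8.98 on the other arrays. The mean of both sets was -0.08. In the list of MXD proteins and clock partners, 4 of 18 measured genes (22.2%, beside 9.05% of all genes) lay below on both Hif1a-/- arrays. Above on both lay 1 (5.56%, beside 15.7%). Cry1, a clock repressor, read 9.25 and 9.25 in WT and 9.01 and 8.97 in Hif1a-/- cells. Mxd4, an antagonist of MYC like Mxi1, read 9.71 and 9.70 in WT and 9.42 and 9.50 in Hif1a-/- cells. The differences, -0.26 ± 0.12 (SE) and -0.24 ± 0.12 (SE), had unadjusted limma p of 0.0676 and 0.0878.

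The coactivators that HIF-1 recruits hardly differed. Crebbp, the gene of CBP, read 11.05 and 11.17 in WT and 11.15 and 10.96 in Hif1a-/- cells. Ep300 read 11.66 and 11.37 in WT and 11.57 and 11.37 in Hif1a-/- cells. Cited2, a HIF target whose product competes with HIF for these coactivators, read 12.44 and 12.57 in WT and 12.45 and 12.46 in Hif1a-/- cells. In all 3 the difference was -0.05, the groups overlapped, and the intervals together spanned -0.42 to 0.33. Each turned without at least 1 array. A list of other coactivators, CITED proteins and regulators, Hif1an and Hdac3 among them, had 15 genes measured. Of these, 4 (26.7%, beside 9.05% of all genes) lay below on both Hif1a-/- arrays. Above on both lay 1 (6.67%, beside 15.7%). The gene above was Cited4, a relative of Cited2, with means of 9.91 in WT and 10.28 in Hif1a-/- cells and groups 0.28 apart (difference 0.37 ± 0.13 (SE), unadjusted limma p 0.0271). Pkm, pyruvate kinase and a reported HIF coactivator, read 0.36 lower on average, with an unadjusted limma p of 0.0376. Pkm is counted again among the metabolic and matrix targets below, and Hif1an among the components of the HIF pathway.

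All 5 genes of stress and growth restraint averaged lower without Hif1a, 2 of them with groups apart. Ero1a, the oxidase that drives disulfide formation in the endoplasmic reticulum, read 13.39 and 13.16 in WT and 12.88 and 12.89 in Hif1a-/- cells. The Hif1a-/- arrays were nearly equal and lay at least 0.27 below WT, a 1.31-fold difference. The difference was -0.39 ± 0.13 (SE), with an unadjusted limma p of 0.0245, and ranged from -0.51 to -0.28 when single arrays were left out. Ndrg1, a growth suppressor long used as a marker of hypoxia, read 10.66 and 10.56 in WT and 10.27 and 10.36 in Hif1a-/- cells. Its groups lay 0.20 apart, and the difference was -0.29 ± 0.12 (SE), with an unadjusted limma p of 0.0539.

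Ccng2, an atypical cyclin that slows division and a target of FoxO factors as well, read 9.60 and 8.97 in WT and 9.11 and 8.64 in Hif1a-/- cells. Replicate 1 was the higher array in each genotype, the groups overlapped, and the difference was -0.41 ± 0.25 (SE). That difference was -0.09 without WT replicate 1 and -0.72 without WT replicate 2. Ddit4, the REDD1 inhibitor of mTORC1, read 9.34 and 9.54 in WT and 9.16 and 9.37 in Hif1a-/- cells, with replicate 2 higher by 0.20 and 0.21. The groups overlapped, with a difference of -0.17. Wsb1, a substrate receptor of a ubiquitin ligase, read 11.07 and 11.04 in WT and 11.05 and 10.82 in Hif1a-/- cells, a difference of -0.12 that came to 0.00 without Hif1a-/- replicate 2.

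Of the 4 genes of mitochondrial and lipid stress, Hilpda had groups apart. Its product sits on lipid droplets and inhibits the lipase that empties them. Hilpda read 8.66 and 8.77 in WT and 8.44 and 8.30 in Hif1a-/- cells. The lower WT array stood 0.21 above the higher Hif1a-/- array (1.27-fold on average). The difference was -0.34 ± 0.13 (SE), with an unadjusted limma p of 0.0359, and ranged from -0.41 to -0.27 when single arrays were left out.

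Ak4, an adenylate kinase of the mitochondrial matrix, showed the widest spread of the 34 genes, on its highest-mean probe set only. It read 8.89 and 10.20 in WT and 9.06 and 9.43 in Hif1a-/- cells, with WT replicate 2 above the rest and the arrays in the order of Car9 and Car12. A second probe set for Ak4 read 8.70 and 9.02 in WT and 8.46 and 8.60 in Hif1a-/- cells, where the groups did not overlap. Probe set numbers ran together by chromosome for most of these genes. The second set's number lies near those of Car9 and Kdm4c, on chromosome 4 like Ak4, and the first set's lies far from them. The spread of the first set may therefore not be that of Ak4, and which set reads Ak4 more closely was not tested. The sets differed by -0.30 and -0.33 between genotypes, the first with an interval from -1.25 to 0.65. The first turned to 0.35 without WT replicate 2 and was -0.95 without WT replicate 1. Higd1a, a small protein of the inner mitochondrial membrane, read 7.61 and 8.10 in WT and 7.92 and 7.82 in Hif1a-/- cells. The difference of 0.02 turned in sign under a second quantile normalization (-0.02) and with centred array medians (-0.01). A second probe set for Higd1a read 7.27 and 7.54 in WT and 7.44 and 7.28 in Hif1a-/- cells, a difference of -0.04. The number of the first Higd1a set lies near that of Rsbn1, on chromosome 3. The second set's lies nearer those of Car12 and Rora, on chromosome 9 like Higd1a. Which set reads Higd1a more closely was not tested. Fam162a, a mitochondrial protein linked to cell death in hypoxia, read 9.58 and 9.85 in WT and 9.75 and 9.66 in Hif1a-/- cells.

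**Figure D2:**
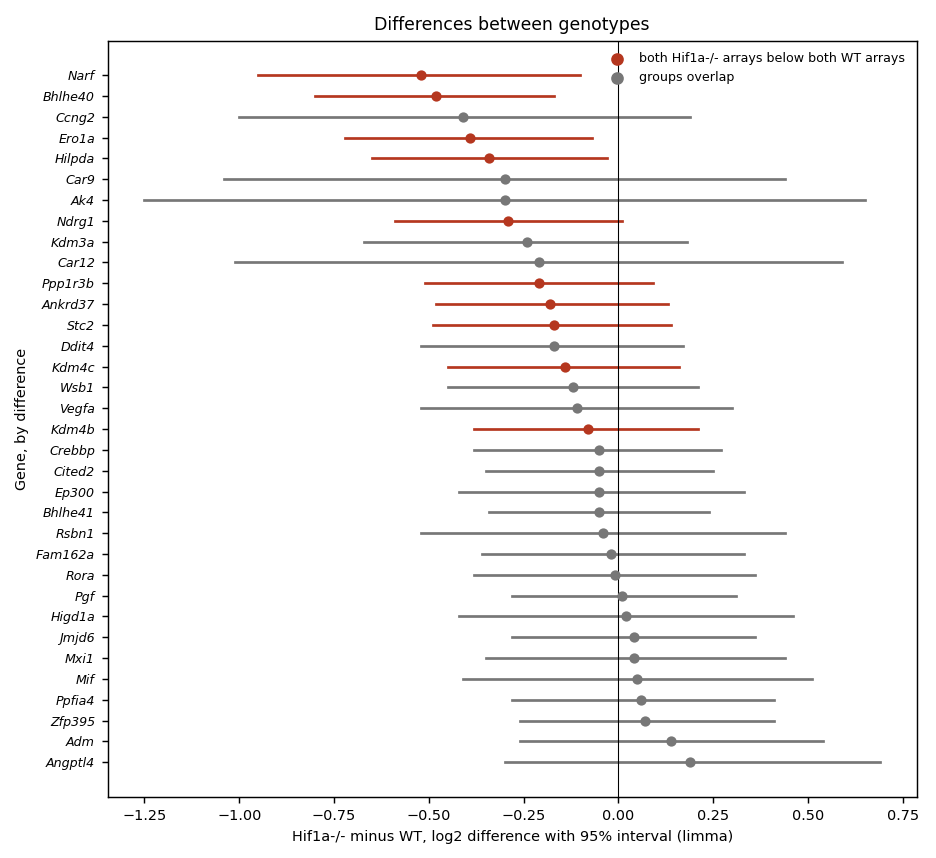
Difference of Hif1a-/- minus WT on the log2 scale for each of the 34 genes, with the 95% interval from limma's moderated variance (2 arrays per group); red marks genes with groups apart. The unadjusted intervals of Narf, Bhlhe40, Ero1a and Hilpda stay below 0, and the interval of Ak4 is the widest, from -1.25 to 0.65.

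The remaining 4 genes included the one with the difference farthest from 0. Narf, which encodes a nuclear protein that binds prelamin A, read 9.92 and 9.75 in WT and 9.53 and 9.09 in Hif1a-/- cells. Hif1a-/- replicate 2 was the lowest array, and the groups lay 0.22 apart, a 1.44-fold difference between the means. The difference was -0.52 ± 0.18 (SE), with an unadjusted limma p of 0.0227, and was -0.31 without Hif1a-/- replicate 2 and -0.74 without Hif1a-/- replicate 1. Ppp1r3b, a subunit that directs protein phosphatase 1 to glycogen, read 8.77 and 8.68 in WT and 8.46 and 8.56 in Hif1a-/- cells. Ankrd37, an ankyrin repeat protein and HIF-1 target, read 8.38 and 8.53 in WT and 8.32 and 8.23 in Hif1a-/- cells. Their groups did not overlap, with gaps of 0.12 and 0.06 and differences of -0.21 ± 0.12 (SE) and -0.18 ± 0.13 (SE). Ppfia4, a liprin scaffold protein, differed by 0.06 with overlapping groups.

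A further list held paralogs of the stress, mitochondrial and remaining genes together with Txnip, Tsc1, Tsc2, Plin2 and Pnpla2, which act in the same processes and are not paralogs. Of 25 measured, 11 averaged lower and 14 higher without Hif1a, with a median difference of 0.02. On both arrays 0 lay below (beside 9.05% of all genes) and 3 above (12%, beside 15.7%). The smallest unadjusted p belonged to Ak7 (0.22) and to Txnip (-0.24), an inhibitor of thioredoxin.

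Within the 34 genes, the spread of the WT arrays exceeded the difference between genotypes for 22, as it did for 15063 of the 19938 genes. WT replicates differed by more than 0.5 in 6 genes (Ak4, Car12, Car9, Ccng2, Mif and Angptl4), and Hif1a-/- replicates in 0. In 5 of these 6, all but Ccng2, WT replicate 2 was the higher WT array. The genes with groups apart were of another kind: their WT arrays differed by 0.23 at most, in Ero1a. Bhlhe40, Ero1a, Narf, Ndrg1, Ppp1r3b, Kdm4c and Kdm4b were slightly higher on WT replicate 1, and Hilpda, Ankrd37 and Stc2 on WT replicate 2. A small spread in WT is part of what keeps groups apart, so this is a description of the groups and no separate result.

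**Figure D3:**
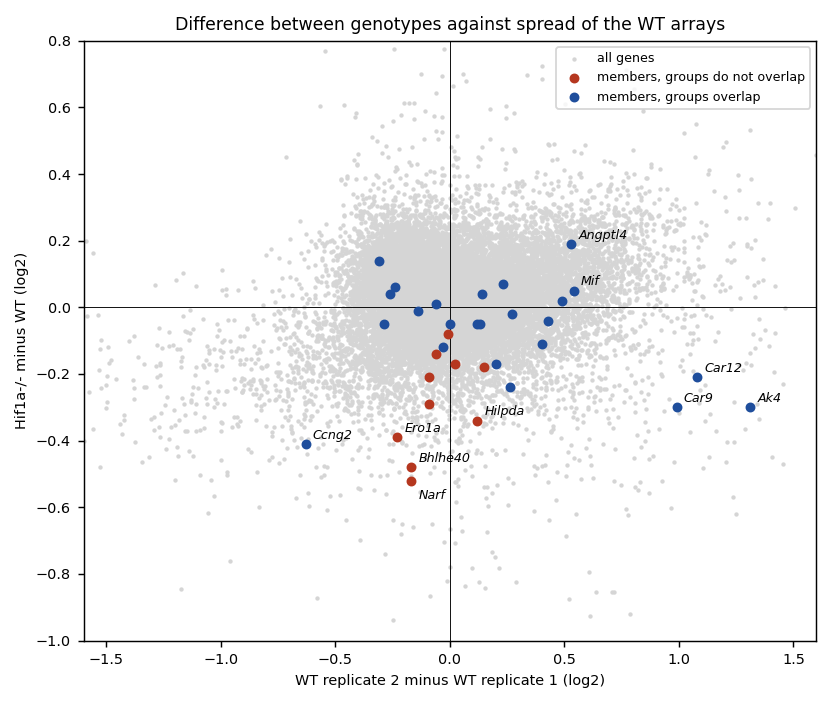
Difference of Hif1a-/- minus WT (vertical, log2) against WT replicate 2 minus WT replicate 1 (horizontal, log2) for all genes in grey and the 34 genes in colour; 97 genes lie outside the frame. Red genes, whose groups did not overlap, sit near 0 on the horizontal axis and below 0 on the vertical one, while Car9, Car12 and Ak4 lie at 0.99 to 1.31 on the horizontal axis.

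The metabolic and matrix targets of HIF-1 were the nearest group for comparison, and earlier results of these arrays had already shown them lower. Of 23 measured, 18 (78.3%) lay below and 1 (4.35%) above on both Hif1a-/- arrays, with a median difference of -0.27. In the 34 genes outside metabolism these values were 29.4%, 0% and -0.10, and over all genes 9.05%, 15.7% and 0.03. The difference between the metabolic and matrix targets and the 34 genes was not tested. Bnip3, a mitophagy receptor, read 10.82 and 10.76 in WT and 9.51 and 9.50 in Hif1a-/- cells, a difference of -1.29 that was farther from 0 than any among the 34. Plod2, a collagen lysyl hydroxylase, followed with -0.94. Of 10 components of the HIF pathway itself, 1 (10%, beside 9.05% of all genes) lay below, Arnt2 at -0.25. Another 1 (10%, beside 15.7%) lay above, Hif3a at 0.37. Hif3a read 8.23 and 8.56 in WT and 8.97 and 8.56 in Hif1a-/- cells, so the gap between its groups rounded to 0.

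**Figure D4:**
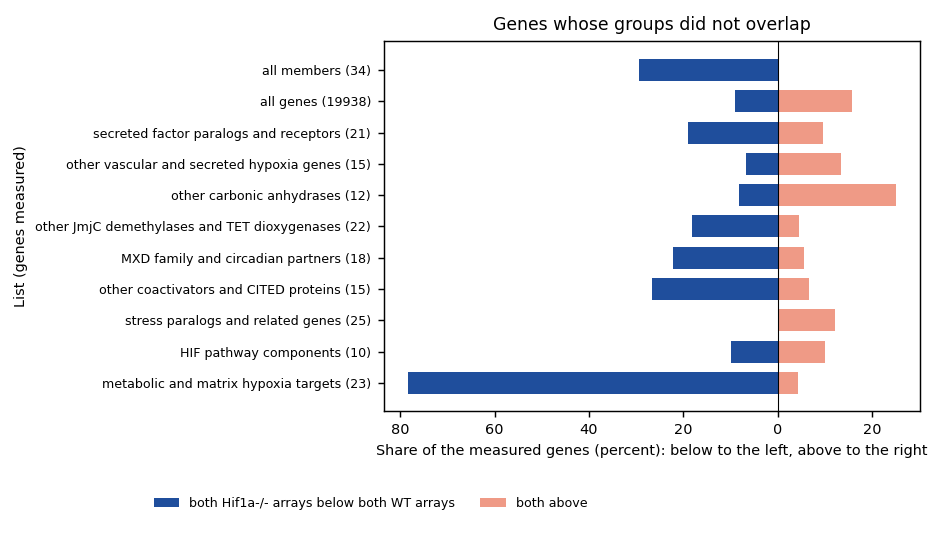
Share of measured genes (percent, horizontal) with groups apart, Hif1a-/- below WT (left, blue) or above (right, pink), for the 34 genes, all genes and each list, with the number measured in brackets. The 34 genes had 29.4% below and 0% above, all genes 9.05% and 15.7%, and the metabolic and matrix targets 78.3% and 4.35%.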

How the data were processed

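Sorted BCR-ABL cells gave RNA for 4 whole-transcript arrays from Affymetrix. Log2 values came from 1 table the authors deposited, with 35556 probe sets, made with Affymetrix Expression Console 1.1 and RMA, per the submitters' processing notes; its other settings are not named there. RMA corrects background, equalises array quantiles and compresses differences of dim genes. The platform annotation gave 21789 probe sets 1 symbol, 1621 several and left 12146 unnamed. Probe sets with 1 symbol were kept, the one with the highest mean per gene, which left 19938 genes.

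Genotype was the single term of a limma 3.58.1 fit (lmFit, eBayes; R 4.3.3) over all genes, and p-values were adjusted by Benjamini-Hochberg over all genes at 0.05. Residual degrees of freedom were 2, and the variance prior added 4.46. An exact two-sided permutation test of 2 against 2 arrays cannot go below 0.333. On simulated data for 19938 genes, 200 of them changed, 58.0% of simulated 2-fold and 97.6% of 4-fold changes were called. False calls averaged 7.7 per data set. Both genotypes were drawn there from the same variance prior, whereas the measured WT arrays stood farther apart than the Hif1a-/- arrays. These shares are therefore not the power of the comparison made here. With so few arrays precision was limited: the median standard error of a difference was 0.14.

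The members, lists, markers and the naming rule were chosen with earlier results of these data known. Every member is named, with all 4 values for those with groups apart, an unadjusted p under 0.05 or one of the 6 largest differences, and for many others. From each other list, the 2 genes with the smallest p are named. In the HIF pathway and stress lists these are named with their difference alone, except Hif3a, whose array values are given. Older symbols were matched through RefSeq synonyms (GRCm38.p6). Alternatives were filters on dim genes, rescaling, a floor, other variance priors, the mean of probe sets, a replicate block and each array left out. RMA's background correction could not be varied from this table, and no slide or scan date was used here.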

Additional observations from a re-analysis of the deposited data

How the results depend on the processing

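The filters, rescalings, floor, variance trends, probe set mean and replicate block left the number of genes with a lower mean, the median difference, the number below on both Hif1a-/- arrays and the number at an unadjusted limma p under 0.05 within 1.5 times, or for the median within the spread between replicates, of the reported values. The number above on both arrays was 2 after a second quantile normalization. At adjusted p thresholds of 0.1 and 0.25 there were still 0 genes, and 4 genes at an unadjusted p under 0.05. Same-numbered arrays did not deviate together (r = -0.01 over all genes, which are not independent), so the numbers were not taken as pairs. With the replicate number as a block, 3 genes had an unadjusted p under 0.05 (Bhlhe40, Ccng2 and Narf) and 0 passed after adjustment, while over all genes the calls went from 0 to 47. Of the 4 genes named at an unadjusted p under 0.05, Narf missed it with the floor, Hilpda with the median filter (which leaves it out), and Ero1a and Hilpda with the block. The filters left out 2 genes (Pgf and Bhlhe41) at the 25th percentile and 9 at the median.

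Leaving out 1 array in turn gave 12 to 23 genes below and 4 to 11 above on the arrays left, and a median difference from -0.16 to -0.04. Over all genes, 19.5% to 32.3% then lay below and 30.4% to 43.0% above. With 1 array left in a genotype, fewer arrays have to lie apart. That array is assumed to vary like the others, so p-values of these fits are not given. The sign turned for 19 genes, with ranges from -0.31 to 0.09 for Vegfa, -0.02 to 0.04 for Pgf, -0.01 to 0.30 for Adm, -0.07 to 0.46 for Angptl4, -0.22 to 0.31 for Mif, -0.79 to 0.20 for Car9, -0.75 to 0.33 for Car12, -0.04 to 0.11 for Jmjd6, -0.26 to 0.17 for Rsbn1, -0.11 to 0.20 for Mxi1, -0.17 to 0.15 for Rora, -0.05 to 0.19 for Zfp395, -0.15 to 0.04 for Crebbp, -0.19 to 0.10 for Ep300, -0.11 to 0.01 for Cited2, -0.23 to 0.27 for Higd1a, -0.15 to 0.12 for Fam162a, -0.95 to 0.35 for Ak4 and -0.06 to 0.18 for Ppfia4. Other settings turned Pgf (-0.04 and -0.01), Higd1a (-0.02 and -0.01) under the 2 rescalings, and with the mean of all probe sets Higd1a (-0.01) and Zfp395 (-0.08). The cause was not tested.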
